A study of Mus musculus with 24 samples.

Results

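The distal end of mouse chromosome 11 was examined in 2 clonal Abelson lymphoblastoid lines, Abl.1 and Abl.2, and in kidney. Of 37315 genes in the count tables, 2811 lie on chromosome 11 and 994 start between positions 88830792 and 121716306 of GRCm38, a stretch of 32.9 Mb. The members are the 314 of these genes with 100 or more allelic counts pooled over the 2 Abl.1 libraries and also over the first run of the 2 Abl.2 libraries. A further 668 genes were under that minimum and 12 Hoxb genes were left out by the rule, of which Hoxb7 alone passed the minimum, with 12172 counts in Abl.1 and 101 in Abl.2. The region was picked because its allelic imbalance (AI) in Abl.1 was shifted away from that in Abl.2, so the comparison of the clones is given as a description with no test.

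A heterozygous F1 animal carries both parental copies of an autosomal gene in the same nucleus, and AI measures their relative contribution to the RNA. When 1 copy of a chromosome stretch is gained, lost or silenced, the AI of many neighbouring genes changes in the same direction, whereas imprinting, random monoallelic expression and regulatory variants act on single genes or small clusters. Cell lines grown from 1 cell can carry such a state in many or all of their cells. Distal mouse chromosome 11 is gene-dense and carries genes for B cell receptor signalling, the Stat transcription factors, DNA replication, chromatin, ribosomes, the proteasome and lipid synthesis.

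Every sample was female, of 129S1/SvImJ x CAST/EiJ F1 background and labelled as a drug treatment control. The kidney libraries were 3 experiments of 6 libraries each, from aliquots of 1 total RNA of 1 adult animal: Experiment 1 (NEBNext kit, 100 ng), Experiment 2 (SMARTseq kit, 10 ng) and Experiment 3 (SMARTseq kit, 100 pg). Abl.1 and Abl.2 are lines of immortalised B cells, each a single clone in growth medium, with 2 SMARTseq libraries from 10 ng each, and both Abl.2 libraries were sequenced a second time. Replicates were library preparations, so the spread given here is technical, and a clone stands for 1 line and the kidney for 1 animal. The clones also differ from the kidney in read type and sequencing site, which cannot be told apart from tissue.

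Total allelic counts were 6138693 to 6702351 per kidney library and 19213150 to 22410835 per clone library, of which the members held 140062 to 163447 in kidney, 1045948 to 1299923 in Abl.1 and 818067 to 873123 in Abl.2, both runs included. All 8 B lineage markers (among them Cd79a, Cd79b, Vpreb1 and Igll1) were detected in both clones, summing to 6398 to 8350 CPM (allelic counts scaled by the library total) against 9.85 to 22.8 in kidney. Pax5 was low in the clones, at 17 to 53 counts per library. Of 8 kidney markers, 7 were at 0 in Abl.1, where Aqp1 had 324 to 713 counts per library. In Abl.2, 5 were at 0, with Umod at 174 to 200, Slc34a1 at 29 to 121 and Slc12a3 at 5 to 8. The 8 kidney markers summed to 10.6 to 32.1 CPM in the clones against 12580 to 22849 in kidney. The 5 T and myeloid markers summed to 168 to 309 CPM in the clones, mostly Lyz2, and to 69.2 to 172 in kidney. In Abl.1, Csf1r had 412 to 1139 counts per library, Itgam 186 to 207 and Cd3e 36 to 49. In Abl.2, Itgam had 15 to 19, Csf1r 0 to 4 and Cd3e 0. Cd4 was at 0 to 2 counts in every clone library. In Experiment 1, replicate 1 stood apart. Its QCC with the other 5 libraries was 2.03 to 2.13, against 1.67 to 1.8 among those 5. The Quality Correction Coefficient (QCC) is the factor by which the spread of AI between 2 libraries exceeds binomial sampling. Its mean was 1.85, 1.47 and 2.59 in Experiments 1 to 3, 2.53 in Abl.1 and 2.17 in Abl.2. All intervals of AI below are 95% Wilson intervals widened by it.

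Promoters of 4 members serve as landmarks. Trim25 lies near the proximal end and had a lower AI in Abl.1, Top2a is among the 5 members with the most counts, Ubald2 had a low AI in kidney and in both clones, and B3gntl1 is the last member at the distal end. The 250 bases upstream of the start were taken from RefSeq (GRCm38.p6), 5′ to 3′, with the CCAAT box or its reverse complement ATTGG in capitals. They lie at chr11:88999153-88999402 on the plus strand, chr11:99024190-99024439 on the minus strand, chr11:116433844-116434093 on the plus strand and chr11:121673152-121673401 on the minus strand.
Trim25: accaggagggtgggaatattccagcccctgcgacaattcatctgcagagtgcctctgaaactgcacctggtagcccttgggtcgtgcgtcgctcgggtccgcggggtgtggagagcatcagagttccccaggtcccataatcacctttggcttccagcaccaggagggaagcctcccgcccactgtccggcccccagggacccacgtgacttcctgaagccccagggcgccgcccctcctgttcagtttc
Top2a: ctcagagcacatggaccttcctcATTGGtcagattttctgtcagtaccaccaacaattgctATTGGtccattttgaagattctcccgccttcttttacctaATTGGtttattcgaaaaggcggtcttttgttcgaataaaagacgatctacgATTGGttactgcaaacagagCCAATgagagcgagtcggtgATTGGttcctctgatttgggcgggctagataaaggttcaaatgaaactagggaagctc
Ubald2: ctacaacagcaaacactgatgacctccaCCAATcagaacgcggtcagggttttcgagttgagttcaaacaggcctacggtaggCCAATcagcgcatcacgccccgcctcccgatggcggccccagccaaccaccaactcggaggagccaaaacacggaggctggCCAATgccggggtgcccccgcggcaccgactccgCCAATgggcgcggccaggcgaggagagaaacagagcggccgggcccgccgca
B3gntl1: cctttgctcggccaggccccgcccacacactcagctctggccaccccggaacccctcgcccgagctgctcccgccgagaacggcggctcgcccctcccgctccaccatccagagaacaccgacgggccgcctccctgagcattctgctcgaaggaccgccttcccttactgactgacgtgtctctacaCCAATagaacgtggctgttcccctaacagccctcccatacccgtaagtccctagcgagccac
The Top2a window holds 6 matches, Ubald2 4, B3gntl1 1 and Trim25 0. Of 314 members 247 had an entry, with 312 promoters, and 38.8% of these held a match on either strand against 33.8% of all 32851 promoters. A match is a description of the letters only.

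AI is the share of a gene's allelic counts in the column named maternal in the files, and the alleles are called maternal-column and paternal-column here because the names may not give the parent. Of 29 listed imprinted genes, 13 had 100 counts in kidney Experiment 2, and 10 of these had an AI on the side opposite to the column names. With 10 counts as the minimum, 2 of 5 did so in Abl.1 and 0 of 5 in Abl.2. AI therefore compares the columns, and no parental origin is read from it. The members favoured the maternal-column allele in Abl.1 and were balanced in Abl.2. Their median AI was 0.671 in Abl.1 (interquartile range over members 0.634 to 0.708) and 0.506 in Abl.2 (0.466 to 0.543). An allele ratio of 2 to 1 corresponds to an AI of 0.667. This value lay inside the interval of 171 of 314 members (54.5%) in Abl.1 and of 30 (9.55%) in Abl.2, and outside it for the rest. A wide interval holds a given value more readily, and the cause of the shift was not tested. The intervals of 30 members in Abl.1 and of 140 in Abl.2 held 0.5. The 2 Abl.1 libraries had medians of 0.676 and 0.668, the 2 Abl.2 libraries 0.506 and 0.504, and the second run of Abl.2 0.503 and 0.505. In kidney, library medians ranged from 0.492 to 0.505 with the NEBNext kit (Experiment 1), from 0.50 to 0.512 with the SMARTseq kit at 10 ng (Experiment 2) and from 0.501 to 0.519 at 100 pg (Experiment 3). Both Abl.1 libraries lay above every other library and run.

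**Figure D1:**
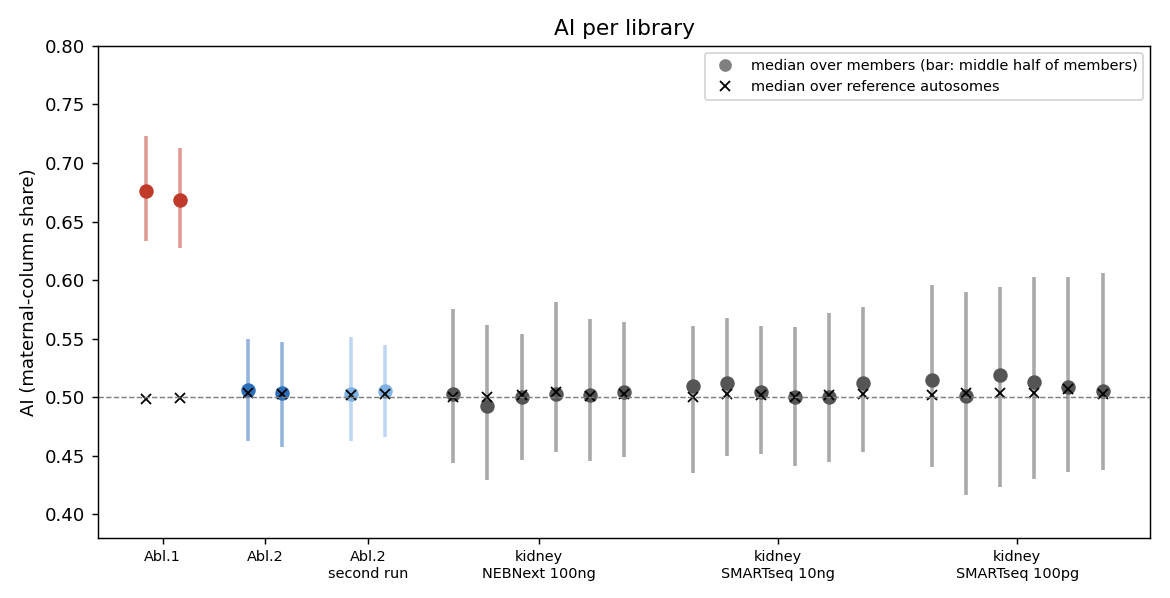
Median AI of the members in each of the 24 sequenced libraries, second runs included (points, with bars for the interquartile range of members) and of genes on the reference autosomes (crosses). The 2 Abl.1 libraries sit at 0.676 and 0.668, while all other libraries and all crosses lie near 0.5.

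AI was higher in Abl.1 than in Abl.2 for 291 of 314 members (92.7%). For 273 members (86.9%) both Abl.1 libraries lay above both Abl.2 libraries, which was the case for 31.3% of the 8509 autosomal genes with the same count minimum, and for 13 members (4.14%) both lay below, against 30.2%. A pooled AI at least 0.1 higher in Abl.1 was found for 255 members (81.2%), against 17.2% of autosomal genes, and at least 0.1 lower for 7 (2.23%), against 18.3%. These shares only describe what the choice of the region fixed. The 8509 genes include the members and other chromosomes shifted between the clones. The reference autosomes, those other than 4, 5, 7, 10 and 11, were set from earlier results of these data. On them 26.1% of genes had both Abl.1 libraries above both Abl.2 libraries, and 10.9% a pooled AI at least 0.1 higher. The median difference in log2 allele odds, Abl.1 minus Abl.2, was 1.00 (interquartile range 0.74 to 1.21). Between 0.5 and 1.5 lay 229 members (72.9%), against 560 of 5494 genes (10.2%) on the reference autosomes. Between libraries of a clone the median absolute difference in AI over members was 0.0227 in Abl.1 and 0.0261 in Abl.2, and between the runs of Abl.2 0.0135.

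The size of the difference varied with the balance that a member had in Abl.2. The median difference in log2 odds was 1.33 for the 60 members with an Abl.2 AI under 0.45, 1.00 for the 179 from 0.45 to 0.55 and 0.71 for the 75 over 0.55. The same Abl.2 values enter both quantities, so these medians are not independent of each other. Depth changed the spread more than the centre. Where the clone with fewer counts had under 400, the 47 members had a median of 0.84 (interquartile range -0.25 to 1.63). The 168 members with 2000 or more had a median of 1.00 (0.85 to 1.16).

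The 5 members with the most counts all had a higher AI in Abl.1. Eif4a3, an RNA helicase of the exon junction complex, had an AI of 0.646 and 0.636 in the Abl.1 libraries and 0.490 and 0.493 in those of Abl.2. Cd79b, a signalling chain of the B cell receptor, had 0.683 and 0.705 in Abl.1 and 0.494 and 0.506 in Abl.2. Nme1, a nucleoside diphosphate kinase, had 0.640 and 0.645 in Abl.1 and 0.504 and 0.493 in Abl.2. In all 3 the Abl.1 libraries were the higher ones and the clones did not overlap. Rpl19, a protein of the large ribosomal subunit, had 0.663 and 0.666 in Abl.1 and 0.516 and 0.526 in Abl.2. Top2a, the topoisomerase that untangles replicated DNA, had 0.681 and 0.668 in Abl.1 and 0.499 and 0.482 in Abl.2. Pooled intervals were narrow, from 0.663 to 0.685 in Abl.1 and from 0.481 to 0.50 in Abl.2 for Top2a. Nme1 and its neighbour Nme2 are close paralogs, as are Stat5a and Stat5b, so some of their reads could be shared or lost in counting.

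The difference between the clones was smaller at the proximal end. The 3 members nearest to it differed by 0.20, 0.33 and 0.02 in log2 odds. Akap1, a mitochondrial anchor protein of kinase A, had 0.488 and 0.493 in Abl.1 and 0.467 and 0.449 in Abl.2. Scpep1, a serine carboxypeptidase, had 0.542 and 0.593 in Abl.1 and 0.532 and 0.504 in Abl.2, so its libraries did not overlap. Coil, the scaffold protein of Cajal bodies, had 0.575 and 0.556 in Abl.1 and 0.580 and 0.542 in Abl.2. Trim25, a ubiquitin ligase of antiviral signalling, was lower in Abl.1, at 0.419 and 0.401 against 0.50 and 0.491. Dgke, a diacylglycerol kinase 0.204 Mb from the proximal end, had 0.654 and 0.745 in Abl.1 and 0.613 and 0.587 in Abl.2. AI was also higher in Abl.1 for the next 10 members, up to Spag9, though the intervals of the clones overlapped for Dgke, Pctp, Stxbp4, Cox11 and Spag9. Mmd at 1.42 Mb had a pooled AI of 0.884 against 0.711, and Cox11 at 1.81 Mb 0.892 against 0.740, both also above 0.5 in Abl.2. Of the 3 nearest genes outside the proximal end, 2 had a lower AI in Abl.1 and the libraries of the third overlapped. C030037D09Rik had a pooled AI of 0.686 in Abl.1 and 0.807 in Abl.2, Msi2 0.443 and 0.505, and Mrps23 0.499 and 0.485. No member lies between Tom1l1 at 1.81 Mb and Utp18 at 5.03 Mb.

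At the distal end the shift was still present. Tbcd, a tubulin folding cofactor, had an AI of 0.676 and 0.679 in the Abl.1 libraries and 0.485 and 0.477 in those of Abl.2. B3gntl1, a glycosyltransferase-like gene, had 0.537 and 0.691 in Abl.1 and 0.507 and 0.504 in Abl.2 on 536 and 558 counts, and its intervals overlapped, 0.525 to 0.728 and 0.417 to 0.594. In 4 Mb blocks, the median AI in Abl.1 ran from 0.647 to 0.684 in the 9 blocks of the region and the median in Abl.2 from 0.488 to 0.581. In the 6 blocks of the proximal flank the Abl.1 medians were 0.465 to 0.520 and those of Abl.2 0.498 to 0.540. The block nearest the region had a lower median in Abl.1, 0.465 against 0.506. Over the 458 genes of chromosome 11 proximal to the region the median was 0.516 in Abl.1 and 0.505 in Abl.2. The interquartile range reached higher in Abl.1, 0.465 to 0.597 against 0.459 to 0.552, so part of these genes also lay above 0.5 there. The flank blocks reach 24 Mb from the region, and genes farther away enter this median only.

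**Figure D2:**
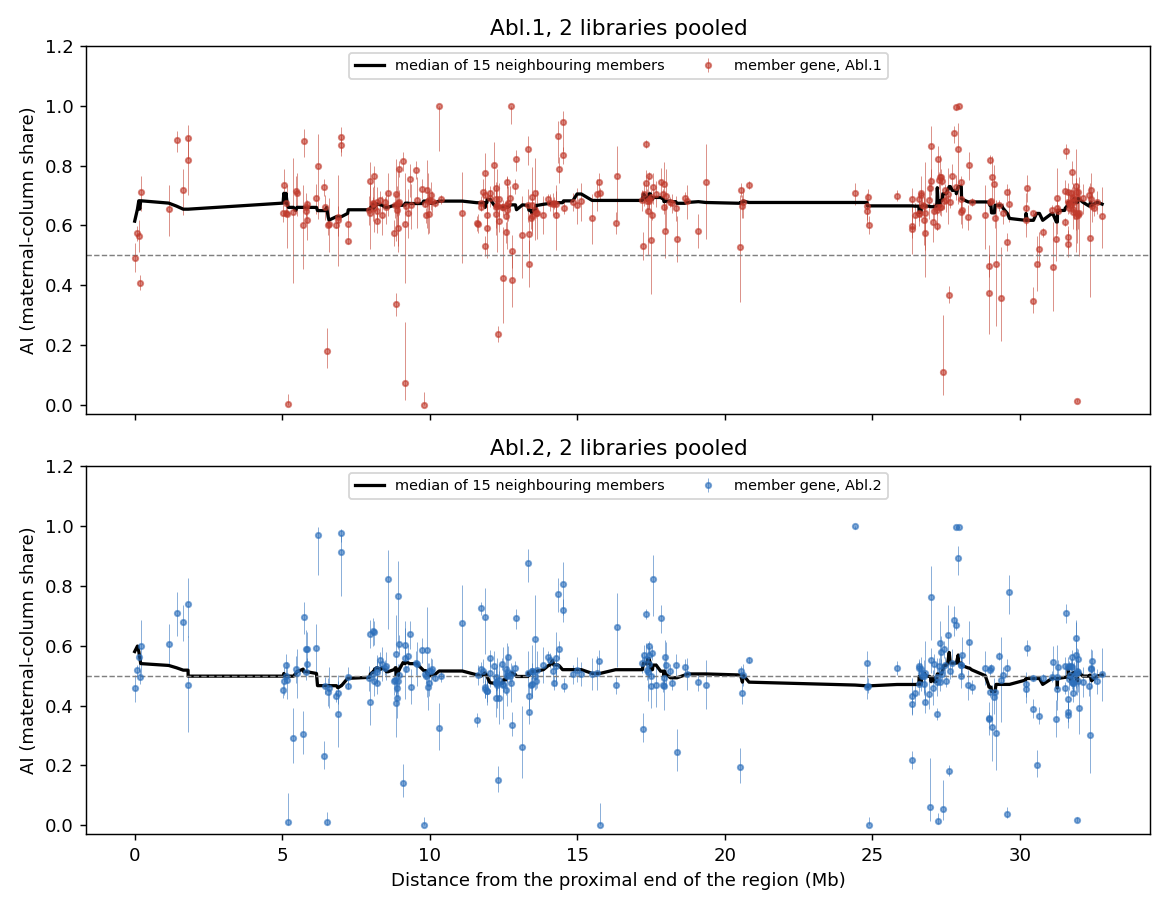
AI of each member (points, with QCC-widened 95% intervals) against its distance in Mb from the proximal end of the region, for Abl.1 above and Abl.2 below, with the median of 15 neighbouring members in black. The Abl.1 line stays near 0.67 from 5 Mb to the end and the Abl.2 line near 0.5.

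Allele dosage was computed as the log2 ratio of 1 allele's counts between samples, minus the median ratio over both alleles of the 5494 genes on the reference autosomes. The clones differed mainly in the dosage of the maternal-column allele. Its median was 0.93 in Abl.1 relative to Abl.2 (interquartile range 0.39 to 1.64), a 1.90-fold ratio, and it was above 0 for 265 of 314 members. The paternal-column allele had a median of -0.05 (-0.55 to 0.70) and was above 0 for 152 members. Both alleles together had a median of 0.56, a 1.47-fold ratio. For genes of the reference autosomes the interquartile range of total dosage was -0.60 to 0.63, so single members could not be told from ordinary differences in expression, and the medians rest on the whole list. With counts summed over members in place of the median over genes, the maternal-column dosage was 1.32 and the paternal-column dosage 0.37, and without Abl.1 replicate 1 the paternal-column median was 0.01.

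**Figure D3:**
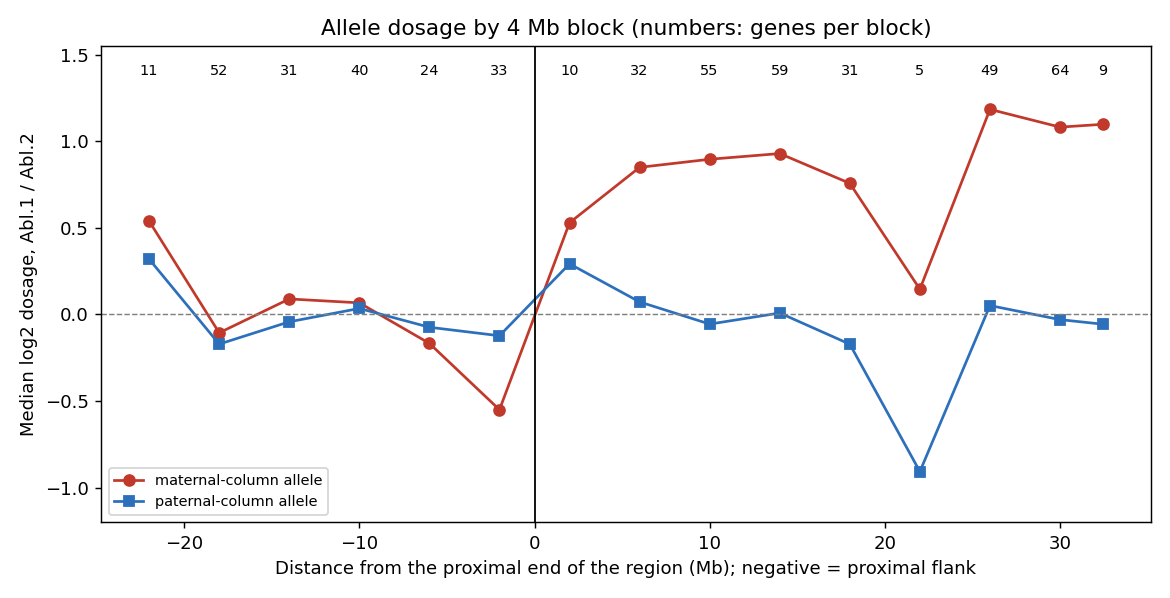
Median log2 dosage of the maternal-column allele (circles) and the paternal-column allele (squares) in Abl.1 relative to Abl.2 in 4 Mb blocks, against distance from the proximal end of the region, with the number of genes above. In the region the circles lie above the squares in every block, and both are lowest in the 5 genes from 20 to 24 Mb; in the block next to the region the circle lies below the square, at -0.55 and -0.12.

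The blocks differed in total level but not in the order of the alleles. The maternal-column median was 0.53 in the first block, 0.76 to 0.93 in the next 4, 0.15 in the block of 5 genes from 20 to 24 Mb and 1.08 to 1.18 in the last 3. The paternal-column median was -0.91 in that block of 5 genes and -0.17 to 0.29 in the other 8. Members with large differences in total level varied in AI. Slc25a10, the mitochondrial dicarboxylate carrier, had 18190 counts in Abl.1 and 3898 in Abl.2, with dosages of 3.08 and 2.06 for the maternal- and paternal-column alleles and an AI of 0.658 and 0.487. Prkca, a protein kinase C, had 1760 and 5254 counts, dosages of -0.87 and -1.47, and an AI of 0.582 and 0.478, a smaller difference than the median member (0.60 in log2 odds).

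The difference in AI ran through every role list, which were written with earlier results of these data known. Of all 314 members, 273 (86.9%) had both Abl.1 libraries above both Abl.2 libraries. The counts by list below are near that share and show nothing particular to a role. Some listed genes have other main roles. Among them are Nsf (chromatin list), Spag9 (replication), and P4hb and Pycr1 (lipid and sugar). Of 12 members with roles in lymphoid signalling, 11 had both Abl.1 libraries above both Abl.2 libraries, with a median difference of 1.14 in log2 odds. Stat5a, a transcription factor of cytokine signalling, had 0.715 and 0.706 in Abl.1 and 0.477 and 0.540 in Abl.2, and its relative Stat5b 0.652 and 0.627 against 0.455 and 0.441. Stat3 had 0.683 and 0.694 against 0.556 and 0.560. Socs3, the inhibitor of cytokine receptors, had 0.717 and 0.751 against 0.443 and 0.416. Map3k14, the NF-kappa-B inducing kinase, had 0.747 and 0.821 against 0.539 and 0.632. The smallest differences with the same order were those of Icam2 and Pecam1, adhesion molecules of blood cells and endothelium, at 0.35 and 0.39 in log2 odds. Abi3, a regulator of actin, went the other way, with 0.856 and 0.878 in Abl.1 and 0.973 and 0.986 in Abl.2. Ccr7, a chemokine receptor of lymphocyte homing, had only maternal-column counts in Abl.1 (139 counts), and 0.186 and 0.504 in the Abl.2 libraries, a wide gap for 1 line.

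In the list of replication, mitosis and repair, all 12 members had Abl.1 higher without overlap of the clones' libraries, against 86.9% of all members. Their differences ran from 0.70 to 1.54 in log2 odds. Tk1, the thymidine kinase of the DNA salvage pathway, had 0.678 and 0.679 in Abl.1 and 0.425 and 0.466 in Abl.2. Birc5, the survivin of the chromosomal passenger complex, had 0.675 and 0.694 against 0.537 and 0.516. Brca1, a protein of homologous recombination, had 0.741 and 0.637 against 0.591 and 0.531, the smallest difference of the list. Cdc6, which loads the replicative helicase, had 0.687 and 0.679 against 0.530 and 0.515. Psmc3ip, a meiotic recombination factor, had the largest, 0.733 and 0.715 against 0.504 and 0.45.

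All 13 members of the chromatin list also had Abl.1 higher without overlap, against 86.9% of all members. Their differences ran from 0.45 (Hexim1) to 1.5 (Kat2a). The Polycomb genes Cbx2 and Cbx8 had pooled AI of 0.617 and 0.657 in Abl.1 and 0.471 and 0.454 in Abl.2. Kat2a, a histone acetyltransferase, had 0.684 and 0.717 in Abl.1 and 0.485 and 0.430 in Abl.2. H3f3b, a gene of the replacement histone H3.3, had 0.654 and 0.648 against 0.481 and 0.479. The same order held for all 10 members for ribosome and translation (median difference 0.90), all 5 for splicing and RNA helicases (1.00) and all 5 for the proteasome (1.13). Rpl38 had a pooled AI of 0.700 against 0.527, Rpl27 0.668 against 0.499, Ddx5 0.660 against 0.493, and Psmd12 0.693 against 0.530. Rpl23 and the proteasome ATPase Psmc5 started higher in Abl.2, at 0.605 and 0.598, and were at 0.790 and 0.765 in Abl.1.

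Of 11 members of the mitochondria list, which also holds the nucleoside diphosphate kinases Nme1 and Nme2, 10 had Abl.1 higher without overlap. Phb, a prohibitin of the inner membrane, had 0.599 and 0.607 in Abl.1 and 0.436 and 0.426 in Abl.2, and Atp5g1, a subunit of ATP synthase, had 0.548 and 0.549 against 0.462 and 0.472. Pdk2, the kinase that restrains pyruvate dehydrogenase, went the other way on 184 and 136 counts, at 0.761 and 0.812 against 0.970 and 0.971. Of 10 members for lipid and sugar metabolism 9 had Abl.1 higher without overlap. Fasn, the fatty acid synthase, had 0.637 and 0.634 against 0.463 and 0.502, and Galk1, galactokinase, 0.596 and 0.60 against 0.378 and 0.368. Gaa, the lysosomal glucosidase, had 0.375 and 0.332 in Abl.1 and 0.420 and 0.356 in Abl.2, so its clones overlapped and both lay under 0.5. Slc9a3r1, a scaffold of apical transporters, was the only member among 8 genes listed for kidney transport, with a pooled AI of 0.597 against 0.405. Over all members the median difference was 1.00, and the medians of the lists were 0.90 to 1.15.

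**Figure D4:**
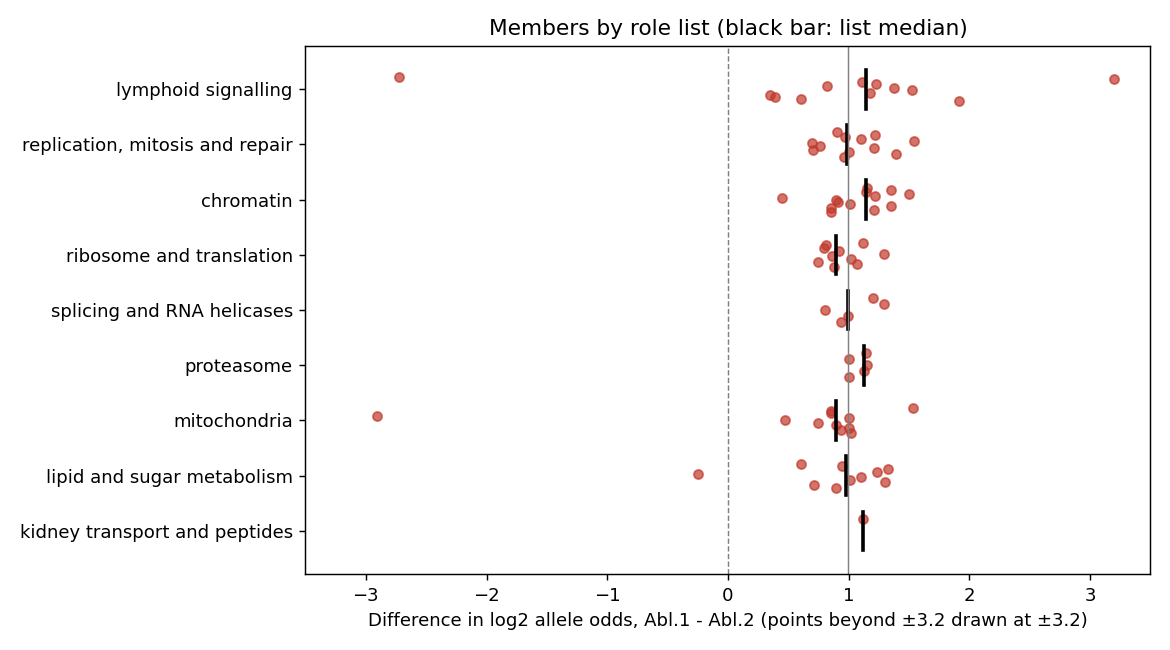
Difference in log2 allele odds between Abl.1 and Abl.2 for the members of each role list (points) with the list median (black bar); the grey line is the median over all members, 1.00. Abi3, Pdk2 and Gaa lie below 0 and all other points above it, with Ccr7, at 9.17, drawn at the axis limit of 3.2.

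Some members were expressed from 1 allele, at an AI of 0.1 or less or 0.9 or more. There were 10 of these in Abl.1 and 16 in Abl.2, 5 of them in both, which is 3.18% and 5.10% of members against 4.75% and 6.41% of the reference autosomes. The 5 in both clones were Gm11518, Gm12355, St6galnac2, BC018473 and Hmga1b, and their AI was close to 0 or 1 in each. Hmga1b has a near-identical relative and Gm12355 and Gm11518 are predicted genes, so reads of other loci could contribute. The 11 members expressed from 1 allele in Abl.2 alone, 7 of them from the paternal-column allele and 4 from the maternal-column one, had a median AI of 0.707 in Abl.1, from 0.111 to 0.895.

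Itgb3, the integrin chain of the platelet and vitronectin receptors, had 230 counts in Abl.2, all paternal-column, and 13844 counts in Abl.1 with an AI of 0.718 and 0.695. Its second run of Abl.2 had a pooled AI of 0.043. Unc13d, a priming factor for secretory granules, had 0.762 and 0.854 in Abl.1 and 0.027 and 0.002 in Abl.2. Plxdc1, a plexin domain membrane protein, had 0.80 and 0.824 against 0.133 and 0.147. These 3 had the largest differences in AI, with Abl.1 higher. Slc39a11, a zinc transporter, had only maternal-column counts in the first run of Abl.2 (1668 counts) and 0.739 and 0.693 in Abl.1. Arl5c, a small GTPase of the ADP-ribosylation factor family, had 120 counts and 0.000 and 0.158 in Abl.1 and 0.576 and 0.637 in Abl.2. With Pdk2 these are the 3 with the largest differences in the other direction. Tmem106a, a transmembrane gene of macrophages, had only maternal-column counts in Abl.1 (387 counts) and 0.530 and 0.425 in Abl.2. Cdc42ep4, an effector of Cdc42 named here after its values were seen, had only paternal-column counts in Abl.2 (662 counts) and 0.561 and 0.619 in Abl.1.

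Close to the count minimum, values were less certain. Just inside it, Tob1 had 107 counts in Abl.1 and an AI of 0.630 and 0.656 there, against 0.282 and 0.300 in Abl.2. Dnah17 had 115 counts in Abl.1 and its libraries gave 0.190 and 0.630, against 0.295 and 0.322 in Abl.2. Caskin2 had 117 counts in Abl.2 with 0.000 and 0.113, against 0.721 and 0.729 in Abl.1. Just outside it, Sgsh had 97 counts in Abl.1 and a pooled AI of 0.124 in Abl.1 and 0.120 in Abl.2. Elobl had 97 counts in Abl.2, all from the maternal-column allele in both clones, and Jup 93, all paternal-column, against 0.644 in Abl.1.

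Kidney provides AI for the same genes in a tissue that the region was not chosen on. Members were tested against an AI of 0.5 with the QCC-corrected proportional test and Bonferroni correction over all genes with 10 counts in every library of an experiment. In Experiment 1, 48 of 274 members (17.5%) were biased, against 18% of all 10857 genes tested. Of these, 22 lay above 0.5, against 9.49% of genes, and 26 below, against 8.56%. Without replicate 1 the count was 45. In Experiment 2, 69 of 274 (25.2%) were biased, against 24.4% of 10739 genes. There 39 lay above, against 13%, and 30 below, against 11.4%. In Experiment 3, 44 of 268 (16.4%) were biased, against 14.2% of 10195 genes, with 27 above, against 7.4%, and 17 below, against 6.85%. The shares of members were thus near those of all genes. Of 261 members tested in all 3 experiments, 13 were called above 0.5 in each and 14 below in each, and none was called in opposite directions. The 27 members called the same way in all 3 were 10.3% of those tested, near the 10.9% of all 9612 genes.

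Of the members biased in all kidney experiments, 5 lay farthest from 0.5. Gm12355 had a pooled AI of 0.007, 0.000 and 0.000 in Experiments 1 to 3 and BC018473 of 0.995, 0.998 and 0.999, close to their values in both clones. Ubald2, a gene of little known function, had a lowest, median and highest library of 0.099, 0.158 and 0.183 in Experiment 2 (Bonferroni-adjusted p of the proportional test 7.75e-86). Its AI was 0.173 and 0.194 in Abl.2, close to kidney, and 0.363 and 0.372 in Abl.1. Tk1 had 0.171, 0.181 and 0.204 in Experiment 2 (adjusted p = 2.39e-212 by the same test). Both clones were far above that, at 0.445 pooled in Abl.2 and 0.679 in Abl.1. Cisd3, an iron-sulfur protein of mitochondria, had 0.788, 0.808 and 0.818 in Experiment 2 (adjusted p = 1.71e-95 by the same test), while the clones lay under 0.5, at 0.336 in Abl.1 and 0.409 in Abl.2.

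The clones differed in how they met these kidney values. For the 14 members below 0.5 in all kidney experiments, AI was under 0.5 in 7 in Abl.2 and in 2 in Abl.1, and it was higher in Abl.1 than in Abl.2 in 12. For the 13 above 0.5, AI was above 0.5 in 11 in Abl.2 and in 12 in Abl.1, and higher in Abl.1 in 11. AI was thus higher in Abl.1 in 85.7% and 84.6% of these members, against 92.7% of all 314. That order was not particular to members biased in kidney. Over the 271 members with 100 counts in Experiment 2, the median difference in log2 odds from kidney was 0.97 in Abl.1 (interquartile range 0.69 to 1.32) and 0.01 in Abl.2 (-0.29 to 0.36). For the 4761 genes of the reference autosomes with that minimum the medians were -0.03 and -0.00314. Both comparisons use the same kidney libraries.

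**Figure D5:**
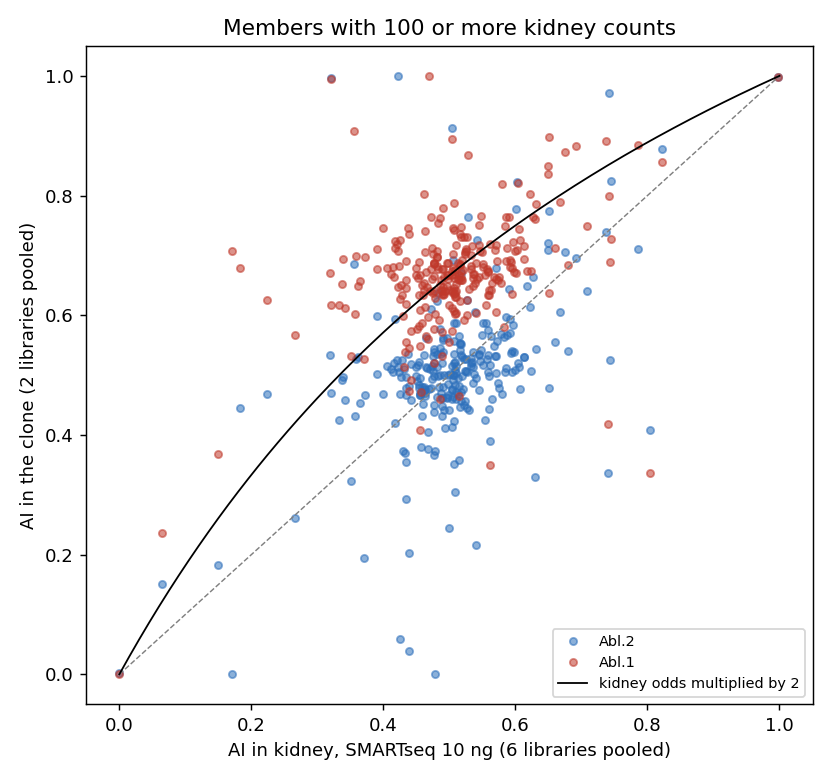
AI of the 271 members with 100 or more counts in kidney Experiment 2 (x axis) and in Abl.1 or Abl.2 (y axis); the dashed line marks equal values and the black curve the kidney allele odds multiplied by 2. Abl.2 points scatter around the dashed line and most Abl.1 points lie above it near the curve, with medians of 0.01 and 0.97 in log2 odds relative to kidney.

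Experiments 1 and 2 differ in kit and input at once, which cannot be told apart. Between them, 10 of 266 members (3.76%) differed in kidney AI, against 4.2% of 10110 genes (two-sample proportional test, QCC-corrected, Bonferroni). Without replicate 1 of Experiment 1 the count was 8. An unadjusted p under 0.05 was found for 64 members (24.1%), against 21.1% of genes. Among the 10 called, the 3 with the largest differences were Lsm12, Ern1 and Snhg20. Lsm12, an Sm-like protein, had a lowest, median and highest library of 0.430, 0.518 and 0.586 in Experiment 1 and 0.674, 0.835 and 0.967 in Experiment 2, which do not overlap (adjusted p = 0.00245 by the proportional test on pooled counts). Ern1, the Ire1 sensor of the unfolded protein response, had 0.453, 0.527 and 0.566 against 0.604, 0.769 and 0.886, also without overlap (adjusted p = 0.0215 by the proportional test on pooled counts). Snhg20, a host gene of small nucleolar RNA, had 0.168, 0.296 and 0.347 against 0.324, 0.445 and 0.487, which overlap (adjusted p = 0.020 by the proportional test on pooled counts). In Abl.1 and Abl.2, pooled AI was 0.856 and 0.878 for Lsm12, 0.727 and 0.824 for Ern1 and 0.627 and 0.469 for Snhg20. The cause of these values was not tested. Between inputs of 10 ng and 100 pg, 0 of 264 members were called, against 0.439% of 10020 genes. Of those members 19 (7.20%) had an unadjusted p under 0.05, against 8.77% of genes, and edgeR with Benjamini-Hochberg adjustment called 3.

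Total counts of both alleles were compared with kidney Experiment 2, made with the same kit and input, by edgeR's quasi-likelihood test, with a call at a Benjamini-Hochberg adjusted p under 0.05 and a log2 fold of at least 1. The comparisons share their kidney libraries, and the Abl.1 libraries also picked the region. Of 314 members, 182 (58.0%) were higher in Abl.1, against 39.3% of the 8788 genes with 100 counts in each clone and 29.6% of all 13991 genes tested, and 33 (10.5%) were lower, against 20.6% and 40.3%. In Abl.2, 135 members (43.0%) were higher, against 39.7% and 29.5%, and 62 (19.7%) were lower, against 20.5% and 41.2%. Thus the members of Abl.2 were near the share of similarly expressed genes. The median log2 fold over members was 1.28 in Abl.1 and 0.78 in Abl.2, beside 0.50 and 0.51 for genes with 100 counts. Without TMM scaling the median over all genes rose from -0.28 to 0.22 in Abl.1 and from -0.35 to 0.49 in Abl.2, and 204 members were then higher and 28 lower in Abl.2 (87.9% of calls higher in place of 68.5%), with 57.9% and 10.9% of genes with 100 counts. In bulk RNA, fewer cells of a type and less RNA per cell cannot be told apart.

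Of 314 members, 126 (40.1%) were higher in both clones, against 31.9% of genes with 100 counts and 22.1% of all genes tested. The 4 with the largest mean fold were Tac4, Top2a, Kif18b and Cd79b. TMM-scaled CPM of Cd79b were 1041 and 795 in the Abl.1 libraries and 1047 and 1040 in those of Abl.2, and 0.938, 1.57 and 2.60 as the lowest, median and highest kidney library. Its log2 fold was 9.0 ± 0.16 (SE) in Abl.1 and 9.18 ± 0.16 in Abl.2 (edgeR, adjusted p = 4.96e-14 and 3.61e-14). Each SE of a log2 fold was taken as the absolute fold over the square root of the test's F value. It is approximate and can understate the error at few counts. Top2a had 1034 and 832 CPM in Abl.1, 829 and 802 in Abl.2 and 0.371 to 2.80 in kidney, and log2 folds of 9.51 ± 0.22 and 9.30 ± 0.22. Kif18b, a kinesin of mitosis, had 6 kidney counts in all and log2 folds of 9.37 ± 0.37 and 9.20 ± 0.37, or 10.07 and 9.90 without kidney replicate 4. As a ratio of counts this was 778 (95% counting interval 357 to 2122) in Abl.1 and 669 (307 to 1824) in Abl.2. These counting intervals are wider than the SE of Kif18b implies. Tac4, which encodes hemokinin, a tachykinin of haematopoietic cells, had 1 kidney count, in replicate 3. Its ratio to kidney was 4179 (95% counting interval 749.8 to 165093) in Abl.1 and 798 (143 to 31525) in Abl.2, and its AI was 0.735 and 0.718 in Abl.1 and 0.264 and 0.195 in Abl.2. By list, those higher in both clones were 8 of 12 lymphoid, 7 of 12 replication, 8 of 13 chromatin, 3 of 10 ribosome, 3 of 5 splicing, 2 of 5 proteasome, 2 of 10 lipid and sugar, and 0 of 11 mitochondrial members. Spag9, a scaffold of JNK signalling, was lower in both, with log2 folds of -1.80 ± 0.16 and -1.02 ± 0.15.

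Of 314 members, 30 (9.55%) were lower in both clones, against 14.4% of genes with 100 counts and 33.7% of all genes tested. Tmem106a had 6.76 and 9.65 CPM in Abl.1, 17.9 and 17.5 in Abl.2 and 653 to 692 in kidney, with log2 folds of -6.46 ± 0.14 and -5.37 ± 0.13 (edgeR, adjusted p = 1.94e-13 and 4.33e-13). Pdk2 had log2 folds of -6.17 ± 0.24 and -6.98 ± 0.25, and -6.91 in Abl.1 without its replicate 2. Tob1, an antiproliferative protein, had -5.30 ± 0.15 and -3.73 ± 0.13. Dcxr, the xylulose reductase of kidney tubules, had -2.78 ± 0.19 and -5.46 ± 0.22. The kidney groups lay apart from the clones in all 4. Of 11 members of the mitochondria list 3 were lower in both clones and none was higher in both, and Abl.2 had 8 lower against 4 in Abl.1. Phb was higher in Abl.1 (log2 fold 1.04 ± 0.09) and lower in Abl.2 (-1.70 ± 0.11), 1 of 5 members (1.59%) called in opposite directions, against 0.831% of genes with 100 counts and 3.04% of all genes.

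Relative to kidney, scaled to the reference autosomes, the median dosage over 271 members was 1.37 for the maternal-column allele and 0.45 for the paternal-column allele in Abl.1. In Abl.2 it was 0.43 and 0.45. For genes of the reference autosomes the medians were -0.02 to 0.03. The spread over members was wide, with a interquartile range of 0.13 to 2.37 for the maternal-column allele in Abl.1. These values depended on the weight given to abundant genes, since summed counts gave 0.95 and -0.07 in Abl.1 and -0.39 and -0.46 in Abl.2.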

How the data were processed

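Allele-specific RNA-seq was analysed in 18 kidney libraries and 6 sequencing runs of Abl.1 and Abl.2. According to the methods and labels, the authors aligned reads with STAR 2.5.4a to 2 GRCm38 pseudogenomes, kept unique alignments and deposited whole-number counts per allele and gene, summed over exonic SNPs, so a read over several SNPs was counted at each. Deposited tables of pooled AI and its intervals hold the authors' own results and were not used. In the deposited tables, 26 symbols that a spreadsheet had turned into dates were restored.

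The members and gene lists, imprinted genes included, were chosen with earlier results of these data known. Genes were named by role list, by counts, by size of difference, by position at the ends of the region and by nearness to the count minimum. For the QCC and the kidney tests, groups with library totals more than 5% apart were thinned to their smallest library (6138693 counts in Experiment 1). Genes were binned by coverage for the QCC (bin edges growing by a factor of 1.05, 40 or more genes a bin, coverage from 50 upwards), and each bin's spread was compared at 7 quantiles with binomial draws. Kidney AI was tested with two-sided QCC-corrected proportional tests on pooled counts for genes with 10 counts in every library, with Bonferroni correction at 0.05. Total counts were tested with edgeR 4.0.16 (quasi-likelihood, TMM, filterByExpr) in R 4.3.3, and DESeq2 1.42.0 was an alternative. Allele odds and dosage used a pseudocount of 0.5 per allele. Other steps ran in Python 3.11.15 with pandas 2.3.3, scipy 1.17.1, numpy 2.4.6 and, for plots, matplotlib 3.10.9. The edgeR test of totals and the 2 tests of a difference in AI (edgeR and the two-sample proportional test) were tried on simulated data. Intervals cover counting error, widened by the QCC, and p-values measure the spread between library preparations only. Same-numbered libraries were not treated as pairs. Alternatives changed the test, correction, count minimum, scaling, reference genes, sequencing run and each library in turn. Values of some single genes are not reported here.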

Additional observations from a re-analysis of the deposited data

Results flagged for a closer look

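In 33 sets of 6 kidney libraries that were examined, 4 held a library far from the others, where chance gives about 1 in 20. The AI of BC018473 was lowest in 1 NEBNext library at 0.979 (others 0.996 to 1) and in 1 library at 100 pg at 0.996 (all others at 1). Ern1 had an AI of 0.348 in 1 library at 100 pg (others 0.739 to 0.957). The summed AI of the members was 0.508 in 1 library at 100 pg (others 0.502 to 0.503).

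The kidney AI of 10 members differed between the kits, of which 9 are given here, by the two-sample proportional test on pooled counts (Bonferroni). As SMARTseq 10 ng minus NEBNext 100 ng, it was higher by 0.303 for Lsm12, 0.221 for Ern1, 0.159 for Snhg20, 0.119 for Lgals3bp, 0.0854 for Nme1 and 0.0534 for P4hb. The difference was -0.115 for Caskin2, -0.101 for Pitpnc1 and -0.0864 for Acbd4. Adjusted p-values ran from 3.76e-07 for Acbd4 to 0.0215 for Ern1. Among these 9, all but Lsm12, Ern1 and Snhg20 are named here after their values were seen.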

How the results depend on the processing

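Counts of biased members in kidney depended on the correction. With Benjamini-Hochberg in place of Bonferroni they were 94, 127 and 86 in Experiments 1 to 3, with edgeR 90, 125 and 74, and without the QCC 85 in Experiment 1 and 100 in Experiment 3. Differences between Experiments 1 and 2 numbered 33 with Benjamini-Hochberg, 34 without the QCC and 30 with edgeR, and those between Experiments 2 and 3 numbered 6, 18 and 3. With adjusted p alone, 54 members were lower in Abl.1 than in kidney. Without TMM, 204 were higher and 28 lower in Abl.2.

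With counts summed over members, AI in Abl.1 was 0.665 and the log2 odds difference 0.96. Summed maternal- and paternal-column dosage was 1.32 and 0.37 for Abl.1 over Abl.2 and 0.95 and -0.067 for Abl.1 over kidney. For Abl.2 over kidney it was -0.39 and -0.46, so 3 of the kidney dosages changed sign. TMM factors gave 1.59 and 0.66 for Abl.1 over kidney and 0.63 and 0.66 for Abl.2 over kidney, and a minimum of 400 counts 1.23 and 0.27, and 0.32 and 0.38. The second run of Abl.2 gave a median AI of 0.503 and a paternal-column dosage over kidney of 0.52. The cause was not tested.

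With each library left out in turn, biased members numbered 41 to 45, 61 to 66 and 34 to 40 in Experiments 1 to 3. Differences numbered 6 to 10 between Experiments 1 and 2, with 6 without NEBNext replicate 4, and 0 to 2 between Experiments 2 and 3. Totals were higher for 174 to 183 members in Abl.1 and 133 to 139 in Abl.2, and lower for 32 to 34 and 58 to 62. Median AI was 0.668 to 0.676 in Abl.1 and 0.504 to 0.506 in Abl.2, and the log2 odds difference 0.96 to 1.04. Maternal- and paternal-column dosage was 0.94 to 1.01 and -0.08 to 0.01 for Abl.1 over Abl.2, 1.28 to 1.42 and 0.34 to 0.47 for Abl.1 over kidney, and 0.40 to 0.44 and 0.43 to 0.47 for Abl.2 over kidney.

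Same-numbered libraries of the kidney experiments did not deviate together (correlations from -0.0295 to 0.0256). Between the clones the correlation was higher, at 0.173 (1 value). With a replicate block edgeR called 28 members between Experiments 1 and 2 and 0 between Experiments 2 and 3, and for totals 173 higher and 34 lower in Abl.1 and 133 and 61 in Abl.2. The block moved the log2 folds of Cd79b to 9.67 and 9.86, of Kif18b to 13.86 and 13.77 and of Tac4 in Abl.1 from 11.60 to 13.82 and in Abl.2 from 9.17 to 11.41. For totals, only kidney replicates 1 and 2 share a number with clone libraries, so the blocked folds rest on those kidney libraries alone. The 1 kidney count of Tac4 was in replicate 3, outside them. Leaving out the 4 members nearest the proximal end, an alternative chosen after seeing the data, gave a median AI of 0.673 and 0.506 and a log2 odds difference of 1.00. Kidney depth limits AI for the 43 members with under 100 counts at 10 ng.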
